A study of Homo sapiens with 8 samples.

Results

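The genes described here are NNMT and 9 enzymes or enzyme subunits that make its substrates, remove its products or share its pathways: MAT1A, MAT2A, MAT2B, AHCY, NAMPT, NAPRT, NADSYN1, NMNAT1 and AOX1. They are 10 of the 58206 gene identifiers in the deposited count table, and each symbol matched 1 identifier. The rule matches gene symbols, but the list was drawn up with the results of this contrast known and counts as selected on the log2 fold change between the 2 labels, so its members' values are given as a description and carry no p-value. RNA was sequenced from Alexander1 cells (ATCC CRL-8024), an established human hepatocellular carcinoma line whose own Axin1, a scaffold of the complex that degrades beta-catenin, lacks the GSK3-binding region, so that canonical Wnt signalling is constitutively active, per the series' design text. There were 4 libraries of this parental line (genotype "wt (Axin1 -)") and 4 of a stable derivative (genotype Axin1 +) said to carry full-length Axin1 at physiological levels. The derivative was made by VSVG retroviral transfer and clonal selection in hygromycin B. The labels print this treatment for all 8 samples and do not say whether the parental cells went through transfer or selection, nor how many clones there were, so effects of Axin1, of the selection and of a clone cannot be told apart.

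NNMT transfers a methyl group from S-adenosylmethionine (SAM) to nicotinamide, giving S-adenosylhomocysteine and 1-methylnicotinamide, and is abundant in normal liver. It therefore joins the methionine cycle, which makes SAM and recycles S-adenosylhomocysteine, to NAD salvage, which rebuilds NAD from nicotinamide. SAM is made by methionine adenosyltransferases: the MAT1A product is the catalytic subunit of adult hepatocytes, the MAT2A product that of most other cells and of many liver tumours, and the MAT2B product a regulatory subunit for the MAT2A enzyme. AHCY hydrolyses S-adenosylhomocysteine, NAMPT carries out the rate-limiting step of NAD salvage from nicotinamide, NAPRT is the entry enzyme for nicotinic acid, NMNAT1 forms the dinucleotide in the nucleus, NADSYN1 amidates the nicotinic acid dinucleotide to NAD, and AOX1 oxidises 1-methylnicotinamide to pyridones.

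Levels are given as CPM, the counts of a gene relative to a library total scaled by the trimmed mean of M-values (TMM), and runs of 4 values follow the replicate numbers 1 to 4. Library totals ran from 11232951 to 15263761 counts in the parental line and from 12372436 to 26400782 counts in the derivative, so that 3 counts correspond to between 0.108 and 0.267 CPM. AXIN1 mRNA was not higher in the derivative: it stood at 55.3, 52.8, 47.4 and 54.2 CPM in the parental libraries and at 47.6, 48.0, 48.2 and 37.7 CPM in the derivative (log2 fold change -0.21, SE 0.12, adjusted p = 0.267 by edgeR's quasi-likelihood test), and the table does not separate transferred from endogenous transcript. The derivative is therefore called restored-labelled throughout. Within a label, pairs of libraries that included replicate 1 differed most (chi-square per degree of freedom 45.2 to 82.9, against 8.59 to 36.8 for the other pairs). This measure uses raw counts and grows with depth, and restored-labelled replicate 1 had the highest total, 26400782 counts. The part of depth in these values was not tested. Counts below are also given without both replicates 1. The labels do not say that replicates came from separate cultures, so p-values measure only the spread between these samples. Of hepatocyte markers, 10 of 10 were detected and tested, led by SERPINA1 at 8943 to 17644 CPM, whereas ALB lay between 13.8 and 681 CPM. In bulk RNA, fewer cells expressing a gene and less of its RNA per cell cannot be told apart.

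NNMT had a far higher level in the restored-labelled libraries. The gene (ENSG00000166741) lies at chr11:114257787-114313285 on the plus strand of GRCh38. In parental replicates 1 to 4 it was read at 7.03, 15.8, 11.8 and 11.9 CPM, from 79, 234, 132 and 166 counts. In restored-labelled replicates 1 to 4 it was read at 178, 313, 289.7 and 221 CPM, from 4956, 3791, 5879 and 5655 counts. All 4 restored-labelled libraries stood above all 4 parental libraries, and the lowest of them was 11.2 times the highest parental one. The means were 11.6 ± 3.60 CPM (SD, n = 4) and 250.3 ± 62.2 CPM (SD, n = 4). The log2 fold change was 4.42 (SE 0.27, 95% interval 3.83 to 5.01), a 21.4-fold difference with an interval of 14.2 to 32.3. It ranked 56th by signed log2 fold change among the 14289 genes tested. Leaving out each library in turn moved the log2 fold change between 4.24 and 4.61.

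**Figure D1:**
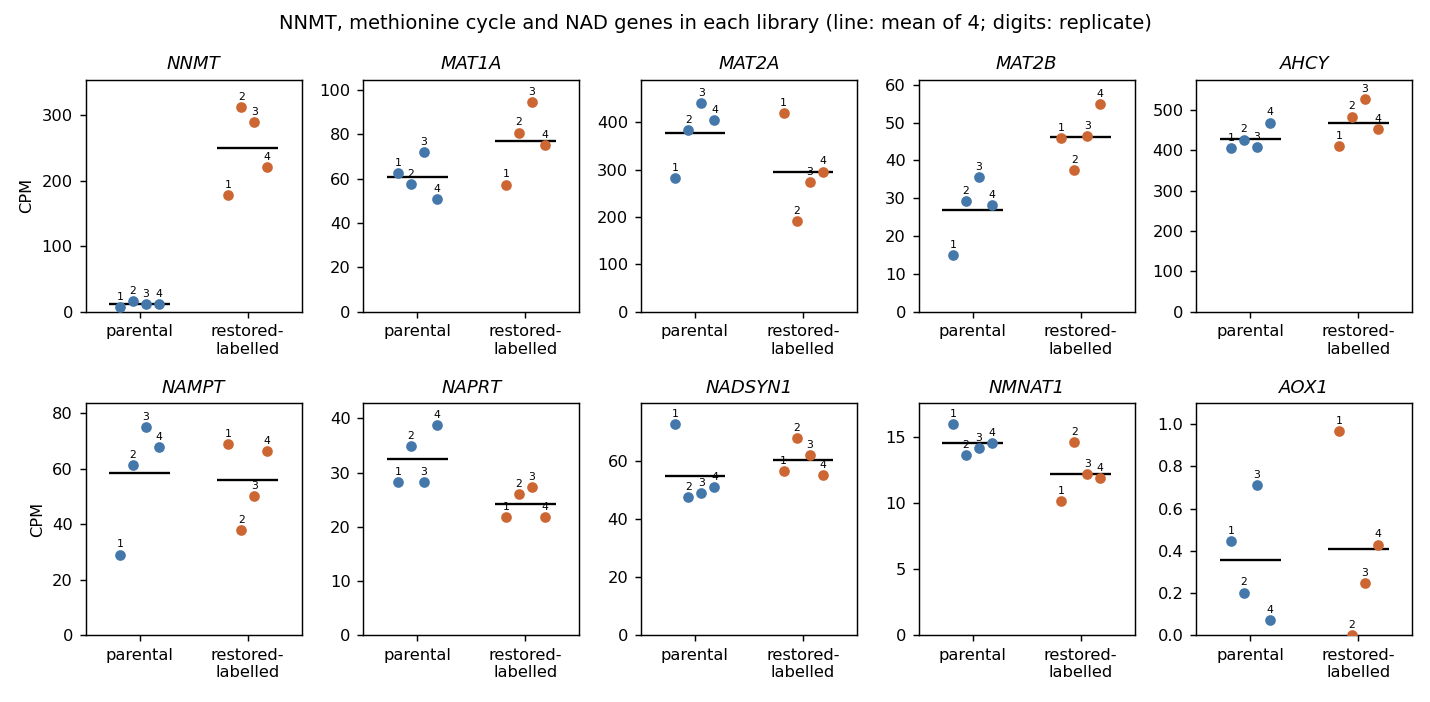
CPM of each of the 10 genes in the 4 parental and 4 restored-labelled libraries, on linear axes from 0 that differ between panels. Points are libraries, digits their replicate numbers and lines the means of 4 libraries; NNMT, MAT2B and NAPRT are the genes whose labels do not overlap.

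Of the 10 genes, 9 passed the filter on low counts and could be tested; AOX1 did not. The quasi-likelihood test called 2 of the 9, NNMT and MAT2B, both higher in the restored-labelled libraries, against 19.2% of all tested genes called (10.4% higher and 8.77% lower). The libraries of both labels stood fully apart for 3 of the 9, NNMT, MAT2B and NAPRT, against 23.9% of all tested genes. Since the list was made with this contrast known, nothing is read from either count. The median log2 fold change of the 9 genes was 0.13, and that of all tested genes 0.00. Without both replicates 1, 5 of the genes and 32.3% of all tested genes were called, the added members being MAT1A (log2 fold change 0.48), MAT2A (-0.69) and NAPRT (-0.44).

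The pair of catalytic genes for SAM synthesis differed in opposite directions, each within overlapping ranges. MAT1A (ENSG00000151224, chr10:80271820-80289684, minus strand) was read at 62.3, 57.6, 71.8 and 50.7 CPM in the parental libraries and at 57.3, 80.7, 94.6 and 75.0 CPM in the restored-labelled ones. Restored-labelled replicate 1 lay among the parental values and the other 3 lay above them. The means were 60.6 ± 8.84 and 76.9 ± 15.5 CPM (SD, n = 4 each), with a log2 fold change of 0.34 (SE 0.17, 95% interval -0.02 to 0.71).

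MAT2A (ENSG00000168906, chr2:85539165-85545280, plus strand) was read at 281, 383, 441 and 404 CPM in the parental libraries. In the restored-labelled replicates it was read at 418, 191, 273 and 296 CPM. Here the replicates 1 crossed over: parental replicate 1 was the lowest of its label and restored-labelled replicate 1 the highest of its own. The means were 377 ± 68.3 and 295 ± 93.9 CPM (SD, n = 4 each), with a log2 fold change of -0.36 (SE 0.22, 95% interval -0.85 to 0.14). Leaving out each library in turn moved the log2 fold change between -0.57, without restored-labelled replicate 1, and -0.19, without restored-labelled replicate 2. Without both replicates 1 it was -0.69. Per kilobase of merged exon length, the ratio of MAT2A to MAT1A was 3.71, 5.47, 5.05 and 6.54 in the parental libraries and 6.01, 1.95, 2.38 and 3.24 in the restored-labelled ones, that is 5.19 ± 1.17 and 3.39 ± 1.83 (SD, n = 4 each). The ratio was below every parental value in restored-labelled replicates 2, 3 and 4, and within the parental range in replicate 1.

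The upstream windows of both catalytic genes are printed because these related genes, one typical of hepatocytes and the other of other cells, are both expressed here and differ in the makeup of their upstream sequence. They are the exon-free part of the 250 bases before each start site in RefSeq's GRCh38.p14 table, chr10:80289685-80289908 on the minus strand for MAT1A and chr2:85538918-85539164 on the plus strand for MAT2A. Each is written 5′ to 3′ on the strand of its gene, with capitals marking matches to CCAAT or GGGCGG on either strand.
MAT1A: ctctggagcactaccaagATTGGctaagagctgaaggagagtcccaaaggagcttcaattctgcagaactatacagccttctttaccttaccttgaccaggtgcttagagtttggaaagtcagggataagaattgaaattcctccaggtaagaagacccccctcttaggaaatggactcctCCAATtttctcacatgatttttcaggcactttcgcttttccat
MAT2A: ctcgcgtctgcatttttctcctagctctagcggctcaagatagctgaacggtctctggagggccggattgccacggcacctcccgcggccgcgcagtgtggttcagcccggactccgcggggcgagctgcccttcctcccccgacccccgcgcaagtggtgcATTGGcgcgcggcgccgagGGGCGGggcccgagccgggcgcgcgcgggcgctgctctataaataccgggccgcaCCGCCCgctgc
G and C made up 44.8% of the 250 bases before the MAT1A start and 71.6% of those before the MAT2A start. The MAT1A window held 2 CCAAT matches and 0 GGGCGG matches, and the MAT2A window held 1 and 2.

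Of the 10 genes, 8 were matched to RefSeq start sites, with 11 windows in all; windows of NNMT and NAPRT were not analysed here. The motifs below were searched on both strands, and none of them contains another. CTTTGAT, a core recognised by TCF/LEF factors of the Wnt pathway, was found in 0 of the 11 windows and in 2.26% of all 35116 windows of that length. CACGTG was found in 1, that of AOX1, and in 6.34% of all windows. CCAAT was found in 4, and in 32.0% of all windows, and GGGCGG in 8, and in 42.6% of all windows. A match describes the letters only.

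How far reads of MAT1A and MAT2A can be mistaken for each other was read from their coding sequences. Both are 1188 bases long, 860 of which are identical in an ungapped comparison (72.4%). The longest exact run they share is 15 bases, GTCATTGTCAGGGAT, starting at coding position 1075 of both. Another limit touches MAT2A: its exons overlap those of GGCX, on the opposite strand, over 558 bases, and the use of strand in counting is not given in the sources used here. GGCX, a vitamin K-dependent carboxylase, averaged 126 CPM in the parental and 127 CPM in the restored-labelled libraries (log2 fold change 0.02).

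MAT2B, the regulatory subunit, was higher in the restored-labelled libraries (ENSG00000038274, chr5:163503114-163519336, plus strand). It was read at 14.9, 29.2, 35.5 and 28.2 CPM in the parental libraries and at 46.0, 37.4, 46.5 and 54.8 CPM in the restored-labelled ones. The labels stood apart, though the highest parental value, in replicate 3, and the lowest restored-labelled value, in replicate 2, were close. The means were 27.0 ± 8.69 and 46.1 ± 7.09 CPM (SD, n = 4 each), with a log2 fold change of 0.78 (SE 0.23, 95% interval 0.27 to 1.28), a 1.71-fold difference. The call was lost on leaving out parental replicate 2 (log2 fold change 0.81) or 4 (0.80), or restored-labelled replicate 1 (0.78), 3 (0.77) or 4 (0.68), and at a threshold of 0.01. It was kept without parental replicate 1 (0.58) and without both replicates 1 (0.58).

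AHCY was the most abundant gene of the list per length and differed least in relative terms among the methionine cycle members (ENSG00000101444, chr20:34280268-34311802, minus strand). It was read at 406, 426, 408 and 469 CPM in the parental libraries and at 410.2, 483, 526 and 453 CPM in the restored-labelled ones. The ranges overlapped, with restored-labelled replicate 1 near the bottom of the parental range. The means were 427 ± 28.97 and 468 ± 48.9 CPM (SD, n = 4 each), with a log2 fold change of 0.13 (SE 0.12, 95% interval -0.14 to 0.41).

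NAMPT had nearly the same mean under both labels (ENSG00000105835, chr7:106248285-106286326, minus strand). Its levels were 29.01, 61.3, 74.9 and 67.6 CPM in the parental libraries and 68.7, 37.9, 50.2 and 66.4 CPM in the restored-labelled ones. Parental replicate 1 was less than any other library, and restored-labelled replicate 1 was the highest of its label, as for MAT2A. The means were 58.2 ± 20.2 and 55.8 ± 14.5 CPM (SD, n = 4 each). The log2 fold change was -0.06 (SE 0.27, 95% interval -0.66 to 0.54), and its sign turned with scaling to total counts only (0.01) and on leaving out parental replicate 3 (0.08) or 4 (0.02) or restored-labelled replicate 2 (0.09). Without both replicates 1 it was -0.39.

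NAPRT was lower in every restored-labelled library than in any parental one (ENSG00000147813, chr8:143574785-143578649, minus strand). Its levels were 28.3, 34.9, 28.2 and 38.7 CPM in the parental libraries and 21.7, 26.1, 27.3 and 21.9 CPM in the restored-labelled ones. The gap between the labels was narrow, since parental replicates 1 and 3 stood just above restored-labelled replicate 3. The means were 32.5 ± 5.16 and 24.3 ± 2.89 CPM (SD, n = 4 each), with a log2 fold change of -0.43 (SE 0.15, 95% interval -0.76 to -0.09). It was not called in the test over all genes, and was called in 3 of 18 alternative analyses, a number that includes the one at a threshold of 0.01.

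NADSYN1 and NMNAT1, the members that act late in NAD synthesis, each overlapped between the labels. NADSYN1 (ENSG00000172890, chr11:71453109-71524107, plus strand) was read at 72.7, 47.6, 49.0 and 51.0 CPM in the parental libraries and at 56.6, 67.9, 62.0 and 55.1 CPM in the restored-labelled ones. Parental replicate 1 was the highest of all 8 libraries, while the other 3 parental libraries were below every restored-labelled one. The log2 fold change was 0.13 (SE 0.15, 95% interval -0.21 to 0.47), and 0.29 without parental replicate 1.

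NMNAT1 (ENSG00000173614, chr1:9943428-9985501, plus strand) was read at 15.9, 13.6, 14.2 and 14.5 CPM in the parental libraries and at 10.2, 14.6, 12.2 and 11.9 CPM in the restored-labelled ones. Only restored-labelled replicate 2 reached the parental range. The means were 14.6 ± 0.990 and 12.2 ± 1.84 CPM (SD, n = 4 each), with a log2 fold change of -0.26 (SE 0.16, 95% interval -0.61 to 0.09).

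AOX1, which acts on the product of NNMT, was near the limit of detection under both labels (ENSG00000138356, chr2:200585868-200677064, plus strand). It had 5, 3, 8 and 1 counts in the parental libraries and 27, 0, 5 and 11 counts in the restored-labelled ones. These are 0.445, 0.203, 0.713 and 0.0716 CPM, and 0.969, 0, 0.246 and 0.429 CPM. The ranges overlapped, the value of 0 allows up to 0.248 CPM (3 counts) by counting error alone, and no fold change is given.

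**Figure D2:**
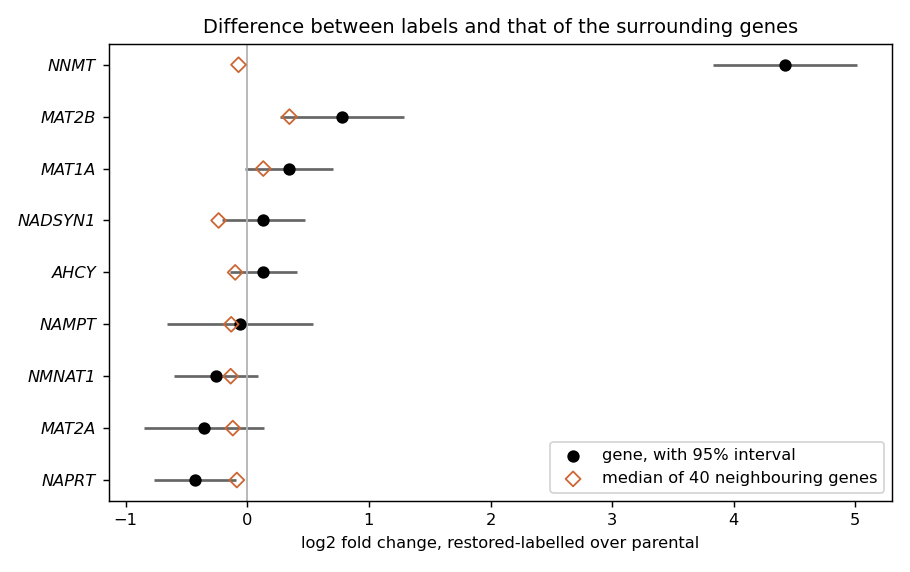
Log2 fold change of the 9 tested genes (filled points, with 95% intervals) and the median log2 fold change of the 40 tested genes around each on its chromosome (open diamonds); positive values are higher in restored-labelled libraries. NNMT lies at 4.42 while its surroundings lie at -0.07, and the other genes lie between -0.43 and 0.78.

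Compared per kilobase of merged exon length, the order of the levels changed mainly through NNMT. In the parental libraries the mean levels per kilobase were 109.8 CPM for AHCY, 84.1 for MAT2A, 16.4 for MAT1A, 10.6 for NAPRT, 6.43 for NAMPT, 5.23 for MAT2B, 3.98 for NNMT, 3.39 for NADSYN1, 3.16 for NMNAT1 and 0.0644 for AOX1. The ranges of neighbours overlapped from NAMPT down to NMNAT1, so NNMT could not be placed apart from MAT2B above it or NADSYN1 below it. In the restored-labelled libraries they were 120.3 CPM per kilobase for AHCY, 85.7 for NNMT, 65.7 for MAT2A, 20.8 for MAT1A, 8.96 for MAT2B, 7.88 for NAPRT, 6.16 for NAMPT, 3.71 for NADSYN1, 2.65 for NMNAT1 and 0.0740 for AOX1. There the ranges of AHCY and NNMT overlapped, as did those of NNMT and MAT2A and those of MAT2B, NAPRT and NAMPT in sequence. NNMT thus stood 7th of 10 in the parental and 2nd of 10 in the restored-labelled libraries.

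The level per kilobase of NNMT was 0.0362 ± 0.0110 of that of AHCY in the parental libraries and 0.706 ± 0.123 in the restored-labelled ones (SD, n = 4 each). Against NAMPT, which handles the same nicotinamide, it was 0.646 ± 0.154 and 15.5 ± 7.97 (SD, n = 4 each). With the longest transcript in place of the merged exons, 5 of the 10 genes kept both ranks, and the main change was NADSYN1, whose merged exons span 16.3 kilobases and whose longest transcript is 3616 bases long. On that scale NNMT stood 8th in the parental and 2nd in the restored-labelled libraries, where its range no longer overlapped that of AHCY.

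**Figure D3:**
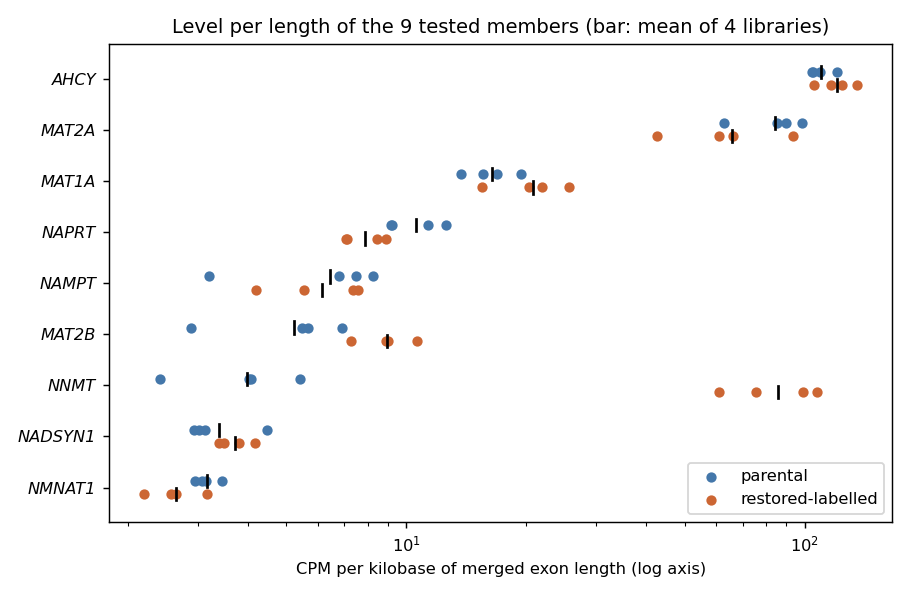
CPM per kilobase of merged exon length (log axis) of the 9 tested genes in each library, with points coloured by label as in the key and bars for the means of 4 libraries. NNMT moves from the low group, near 3.98, to the level of MAT2A and AHCY, between 65.7 and 120.3, with a mean of 85.7.

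Some members had their libraries in the same order within a label. These orders were picked from those of all tested members, and matches over all genes were not counted. MAT2A and NAMPT had the same order of libraries under both labels: replicate 3, 4, 2 and 1 from high to low among parental libraries, and replicate 1, 4, 3 and 2 among restored-labelled ones. NNMT was lowest in replicate 1 and highest in replicate 2 of both labels, though no pairing of the samples by number was seen. Parental replicate 1 had the lowest level of its label for NNMT, MAT2A, MAT2B, AHCY and NAMPT and the highest for NADSYN1 and NMNAT1. Its TMM factor, 0.897, was the lowest of the 8 libraries, against 0.969 to 1.06 in the others, and the part of the library in these values was not tested.

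**Figure D4:**
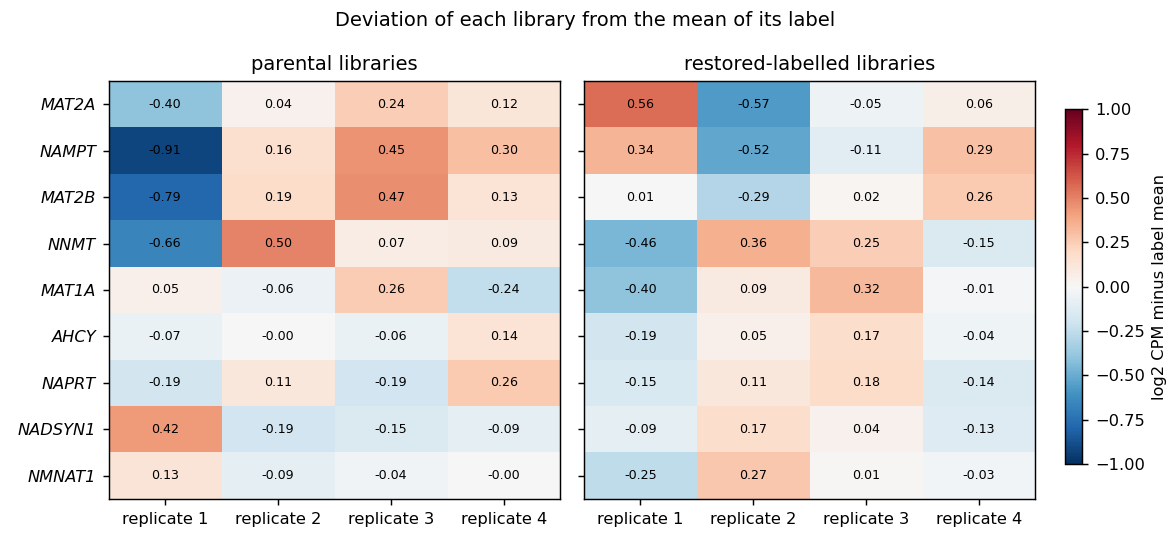
Deviation of each library from the mean of its label, in log2 CPM, for the 9 tested genes in the parental (left) and restored-labelled (right) libraries; red is above and blue below the mean, and numbers give the deviation. Parental replicate 1 is below its label's mean by 0.66 for NNMT, whose restored-labelled replicate 1 is below by 0.46.

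The genes around NNMT on its chromosome had a median difference far from its own. Among the 20 tested genes on each side of NNMT, chr11:111352252-117828698, the median log2 fold change was -0.07, with 5 of 40 called and 1 of these higher. None of the 40 had a larger absolute log2 fold change, which the selection of NNMT on that value favours. Any regional part in the difference of NNMT was not tested. Around MAT2B, chr5:157029413-173139284, the median was 0.35 and 14 of 40 genes were called, 11 of them higher, so MAT2B lay 0.43 above its surroundings on the log2 scale. The shares over all tested genes were 19.2% called and 10.4% called higher. The other 8 windows had medians from -0.24 around NADSYN1 to 0.13 around MAT1A. Of the 9 tested members, 6 had the sign of their window (MAT1A, MAT2A, MAT2B, NAMPT, NAPRT and NMNAT1), with 10 as with 20 genes on each side. The smaller windows lie within the larger ones, and the sign of NAMPT turned in some alternatives. The share over all tested genes was not worked out, so nothing is read from this count.

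Annotated close copies of the members held few counts. Of 17 annotated pseudogenes and readthrough transcripts named after the members, NAMPTP1 held 70 counts over all libraries, AOX2P 14 and AHCYP5 1, and the others 0. Transcripts other than GGCX that share exon bases with members, 1 for AHCY, 1 for NAMPT, 1 for NMNAT1 and 2 for NAPRT, held at most 28 counts in any library.

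The genes whose pattern over the 8 libraries was most like that of NNMT were CCK, KCNK13, UGT2B11, SLC44A5 and MAPK4, by the root-mean-square difference of log2 CPM after each gene's own mean was subtracted. The difference was 0.17 for CCK, 0.43 for KCNK13, 0.45 for both UGT2B11 and SLC44A5, and 0.47 for MAPK4. Over all 12100 protein-coding genes compared, the median was 2.25, and 86 genes lay within 1 log2 unit. This measure is set mainly by the difference between labels, on which NNMT was selected. The median therefore mostly restates that difference, and a small value need not mean likeness within a label. CCK, the gene of the hormone cholecystokinin, was read at 0.534, 1.15, 0.802 and 1.07 CPM in the parental libraries and at 15.5, 25.0, 21.0 and 23.0 CPM in the restored-labelled ones. Replicate 1 was lowest under both labels, as for NNMT, a match that the choice of CCK by likeness favours. UGT2B11 ranged from 2.40 to 5.15 CPM in the parental and from 34.01 to 140.1 CPM in the restored-labelled libraries, and belongs to a glucuronosyltransferase family with near-identical copies, so its reads may be split. KCNK13, SLC44A5 and MAPK4 had 0 counts in all 4 parental libraries, and their likeness depends on the prior count of 2 added before taking logs.

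Around the members, 9 lists of other genes of these pathways were read from the same fit, 102 genes in all, none of them a member. The lists too were chosen with earlier results of these data known, so nothing is read from the counts over them. Of the 87 that were tested, 24 were called (27.6%, against 19.2% of all tested genes), 10 higher and 14 lower in the restored-labelled libraries (10.4% and 8.77% of all tested genes were). Their median log2 fold change was 0.09. The same shares of all tested genes are the background for the count of each list below. With scaling to total counts only, the 20 calls were 11 higher and 9 lower (18.1% of all genes were called). Without both replicates 1, 35 were called (32.3% of all genes). The count was 12 without parental replicate 2 (10.5% of all genes), 14 without restored-labelled replicate 3 (10.7%) and 11 without restored-labelled replicate 4 (9.71%). At a threshold of 0.01, 8 were called: AHCYL2, GAMT, BHMT2, PEMT, GCLM, METTL7A, SLC25A51 and ACMSD. The 17 alternative analyses cited for single genes are those at the threshold of 0.05. Chromosomal windows were read for the members only, so any regional part in the differences of pathway genes was not tested. All adjusted p-values below are from edgeR's quasi-likelihood test with Benjamini-Hochberg adjustment over all 14289 genes.

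**Figure D5:**
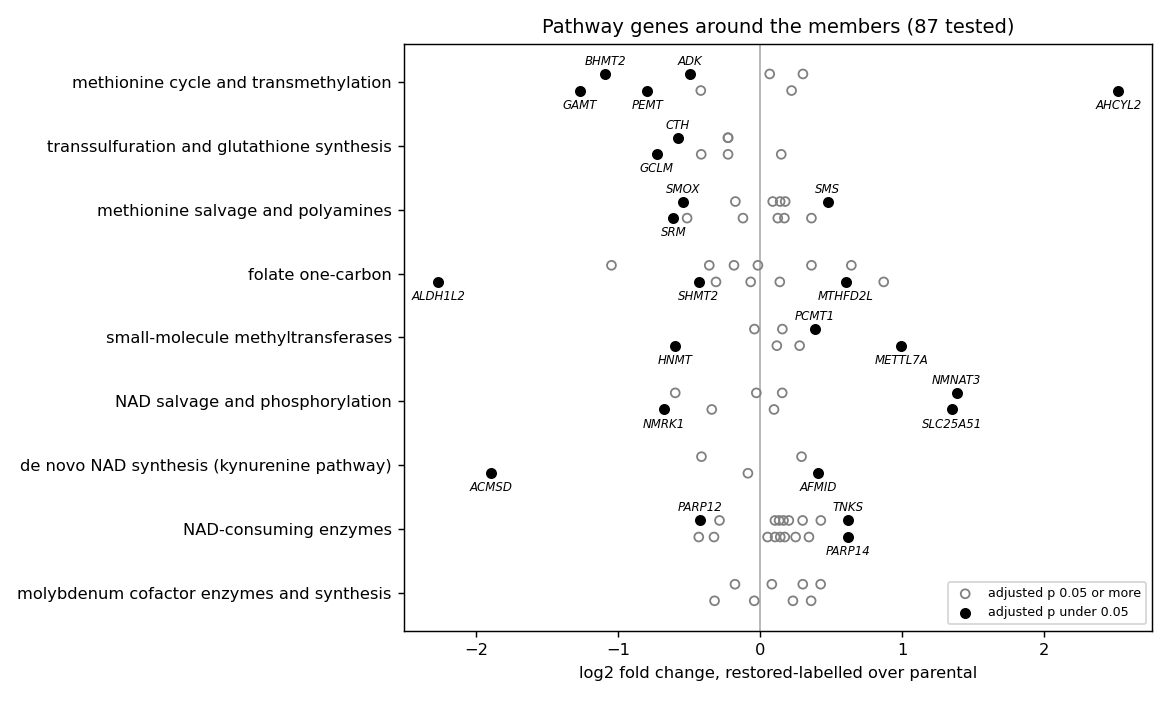
Log2 fold change, restored-labelled over parental, of the 87 tested pathway genes in 9 lists; filled points have an adjusted p under 0.05 and open points do not. The methionine cycle list holds AHCYL2 at 2.52 and 4 genes that fell, and the molybdenum cofactor list holds no filled point.

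In the methionine cycle and transmethylation, 1 gene rose and 4 fell among 9 tested (median log2 fold change -0.42; BHMT and GNMT were not tested). AHCYL2, an AHCY-like protein known for binding ion transporters rather than for hydrolysing S-adenosylhomocysteine, rose from 26.4 ± 4.84 to 152 ± 28.2 CPM (log2 fold change 2.52, SE 0.18, adjusted p = 1.2e-05). GAMT, which uses SAM to make creatine, fell from 49.4 ± 4.59 to 20.5 ± 3.64 CPM (-1.27, SE 0.15, adjusted p = 0.00043). BHMT2, which methylates homocysteine back to methionine, fell from 189 ± 34.2 to 88.4 ± 23.1 CPM (-1.09, SE 0.19, adjusted p = 0.0035). PEMT, which makes phosphatidylcholine with SAM, fell from 47.5 ± 9.61 to 27.4 ± 3.63 CPM (-0.80, SE 0.17, adjusted p = 0.0084). These 4 calls held in all 17 alternative analyses. ADK, which removes the adenosine released by AHCY and was chosen after its values were seen to complete the count, fell from 54.2 ± 4.19 to 38.4 ± 4.89 CPM (-0.50, SE 0.13, adjusted p = 0.024). Its call was lost without parental replicate 2 or 3 or restored-labelled replicate 4 (adjusted p 0.059 to 0.079), with scaling to total counts only (0.057) and without the filter (0.057). MTR, methionine synthase, had a log2 fold change of 0.22 (adjusted p = 0.57), and the AHCY-like AHCYL1 one of -0.42 (adjusted p = 0.063).

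In transsulfuration and glutathione synthesis, the route by which homocysteine leaves the cycle, 0 of 7 genes rose and 2 fell (median -0.23). GCLM, the regulatory subunit of glutamate-cysteine ligase, fell from 244 ± 17.2 to 148 ± 20.0 CPM (-0.73, SE 0.13, adjusted p = 0.0037). CTH, cystathionine gamma-lyase, fell from 57.7 ± 7.17 to 38.5 ± 3.46 CPM (-0.58, SE 0.13, adjusted p = 0.012). Both calls held in all 17 alternatives at 0.05, and that of CTH was lost at 0.01. CBS, which carries out the entry step, had a log2 fold change of -0.23 (adjusted p = 0.51).

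In methionine salvage and polyamine metabolism, which consumes SAM after decarboxylation, 1 of 12 genes rose and 2 fell (median 0.10). SMS, spermine synthase, rose from 201 ± 18.4 to 278 ± 14.7 CPM (0.47, SE 0.12, adjusted p = 0.017), a call lost without parental replicate 2 or 3 (adjusted p 0.055 and 0.052). SMOX, spermine oxidase, fell from 86.2 ± 6.52 to 59.2 ± 11.4 CPM (-0.54, SE 0.15, adjusted p = 0.027), a call lost without parental replicate 2 or 4 or restored-labelled replicate 3 or 4 (adjusted p 0.056 to 0.085) and with scaling to total counts only (0.055). SRM, spermidine synthase, fell from 396 ± 67.3 to 259 ± 50.3 CPM (-0.61, SE 0.17, adjusted p = 0.030), a call lost without parental replicate 2 or restored-labelled replicate 1, 3 or 4 (adjusted p 0.055 to 0.098).

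In the folate pathway, which supplies methyl groups for remethylation of homocysteine, 1 of 13 tested genes rose and 2 fell (median -0.07). ALDH1L2, a mitochondrial formyltetrahydrofolate dehydrogenase, fell from 18.03 ± 4.69 to 3.62 ± 3.86 CPM (-2.27, SE 0.54, adjusted p = 0.016). Restored-labelled replicate 1 stood at 9.40 CPM and the other 3 between 1.49 and 1.91 CPM, all below the parental range, and the call was lost without restored-labelled replicate 4 (-2.04, adjusted p = 0.055). Without restored-labelled replicate 1 the log2 fold change of ALDH1L2 was -3.39 (edgeR adjusted p = 3.9e-05). SHMT2, mitochondrial serine hydroxymethyltransferase, fell from 354 ± 27.9 to 262 ± 24.7 CPM (-0.44, SE 0.12, adjusted p = 0.030), a call lost without parental replicate 2 or 3 or restored-labelled replicate 1, 2 or 4 (adjusted p 0.052 to 0.095), with scaling to total counts only (0.065) and without the filter (0.095). MTHFD2L, a mitochondrial methylenetetrahydrofolate dehydrogenase, rose from 6.94 ± 0.585 to 10.5 ± 1.06 CPM (0.60, SE 0.17, adjusted p = 0.029), a call lost without parental replicate 2 or 3 or restored-labelled replicate 2, 3 or 4 (adjusted p 0.062 to 0.092) and without the filter (0.069).

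Among other small-molecule methyltransferases, the class to which NNMT belongs, 2 of 7 tested genes rose and 1 fell (median 0.15). METTL7A, a membrane-bound thiol methyltransferase, rose from 37.2 ± 7.96 to 74.0 ± 15.4 CPM (0.99, SE 0.20, adjusted p = 0.0065), in all 17 alternatives too. PCMT1, which repairs damaged aspartyl residues in proteins and so acts on proteins rather than small molecules, rose from 123 ± 9.51 to 160.4 ± 10.9 CPM (0.38, SE 0.11, adjusted p = 0.035), a call lost without parental replicate 2 or 4 or restored-labelled replicate 2, 3 or 4 (adjusted p 0.064 to 0.11) and without the filter (0.082). HNMT, which inactivates histamine, fell from 59.8 ± 12.9 to 39.4 ± 7.59 CPM (-0.60, SE 0.19, adjusted p = 0.045), a call lost without any 1 library other than the replicates 1 (adjusted p 0.087 to 0.12) and with scaling to total counts only (0.12). INMT, PNMT and AS3MT were not tested.

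In NAD salvage and phosphorylation, 2 of 8 tested genes rose and 1 fell (median 0.03). SLC25A51, the carrier that brings NAD into mitochondria, rose from 5.16 ± 0.551 to 13.2 ± 2.11 CPM (1.35, SE 0.18, adjusted p = 0.00087), and NMNAT3, the mitochondrial relative of NMNAT1, rose from 1.00 ± 0.340 to 2.67 ± 0.429 CPM (1.38, SE 0.32, adjusted p = 0.013). Both calls held in all 17 alternatives at 0.05, that of NMNAT3 was lost at 0.01, and NMNAT3 rested on 6 to 19 counts in each parental library. NMRK1, nicotinamide riboside kinase, fell from 13.7 ± 2.48 to 8.56 ± 0.411 CPM (-0.68, SE 0.17, adjusted p = 0.020), a call lost without parental replicate 2 or restored-labelled replicate 3 or 4 (adjusted p 0.057 to 0.063). NADK, the cytosolic NAD kinase, had a log2 fold change of 0.10 (adjusted p = 0.62).

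In the kynurenine pathway, which makes NAD from tryptophan, 1 of 5 tested genes rose and 1 fell (median -0.09), and TDO2, IDO1, IDO2 and HAAO were not tested. ACMSD, which diverts an intermediate away from NAD, fell from 7.73 ± 1.05 to 2.04 ± 1.43 CPM (-1.90, SE 0.40, adjusted p = 0.0095). Its call held in all 17 alternatives, and the log2 fold change of ACMSD was -2.54 without restored-labelled replicate 1, which stood at 4.13 CPM. AFMID, kynurenine formamidase, rose from 42.2 ± 4.48 to 56.0 ± 5.60 CPM (0.41, SE 0.13, adjusted p = 0.047). Its call was lost without any 1 library other than parental replicate 1 (adjusted p 0.060 to 0.11), without both replicates 1 (0.068), without the filter (0.081) and with limma-voom (0.051). QPRT, which joins this pathway to the nicotinic acid branch, had a log2 fold change of -0.41 (adjusted p = 0.074).

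Among NAD-consuming enzymes, which release the nicotinamide that NNMT methylates, 2 of 18 tested genes rose and 1 fell, a share (16.7%) near that of all genes (median 0.15). TNKS, a tankyrase known for marking Axin proteins for degradation, rose from 7.62 ± 1.03 to 11.7 ± 0.980 CPM (0.62, SE 0.17, adjusted p = 0.026), a call lost without parental replicate 2 or 3 or restored-labelled replicate 3 or 4 (adjusted p 0.062 to 0.079) and without the filter (0.053). PARP14 rose from 8.40 ± 1.57 to 12.8 ± 1.33 CPM (0.62, SE 0.18, adjusted p = 0.037), a call lost without parental replicate 2 or 4 or any 1 restored-labelled library (adjusted p 0.054 to 0.11). PARP12, like PARP14 a mono-ADP-ribosyltransferase, fell from 37.7 ± 2.56 to 28.04 ± 3.58 CPM (-0.43, SE 0.13, adjusted p = 0.044), a call lost without any 1 library other than the replicates 1 (adjusted p 0.071 to 0.13), with scaling to total counts only (0.13) and without the filter (0.15). Among enzymes that make or use the molybdenum cofactor of AOX1, 0 of 8 tested genes were called (median 0.15).

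Markers of fibroblasts, in which NNMT is known to be abundant, held few counts in these libraries. Any part of such cells in the level of NNMT was not tested. Of 9 fibroblast and stellate cell markers, 2 passed the filter, and their summed level ran from 2.71 to 3.29 CPM in the parental and from 1.38 to 4.84 CPM in the restored-labelled libraries. FAP had 0 counts in every library and PDGFRB fell from 1.69 ± 0.639 to 0.221 ± 0.162 CPM (log2 fold change -2.87, edgeR adjusted p = 0.0045). The other tested marker of this list had a positive log2 fold change and was not called. Of 7 leukocyte and endothelial markers, 2 passed, with a summed level from 427 to 956 CPM in the parental and from 722 to 954 CPM in the restored-labelled libraries, nearly all of it LYZ. PECAM1 rose from 5.18 ± 0.951 to 48.2 ± 10.3 CPM (3.22, edgeR adjusted p = 8.4e-06), while CDH5, PTPRC and VWF stayed at or below 0.248 CPM and CD3E had 0 counts in every library. The hepatocyte list had 2 genes that rose, TTR and FGB, and 2 that fell, SERPINA1 and TF, among 10 tested (median -0.24), and the part of this shift in the level of NNMT, a hepatocyte gene, was not tested.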

How the data were processed

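Messenger RNA libraries from 4 parental and 4 restored-labelled (genotype Axin1 +) Alexander1 samples were analysed, grouped by sample title. The authors deposited 1 table of raw counts per gene, without normalization, as its whole numbers show. The build GRCh38 and the tools bcl2fastq, fastp 0.23.1 and STAR 2.7.4 are named in the submitters' processing notes; the counting program, annotation and use of strand are not given in the sources used here. Identifiers were matched to GENCODE 29 for positions and lengths (57943 of 58206 found) and to a symbol table (57495 found).

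In R 4.3.3, edgeR 4.0.16 filtered genes (filterByExpr, minimum count 10, minimum total 15), scaled by TMM and compared the labels with the two-sided quasi-likelihood test without covariates. P-values were adjusted by the Benjamini-Hochberg method over 14289 genes at a threshold of 0.05. Intervals are at 95%, and log2 CPM used a prior count of 2. On simulated counts (14093 genes, 100 of them changed 2-fold and 95 changed 4-fold) edgeR recovered 57% of genes changed 2-fold and 97.9% of those changed 4-fold. Of its calls there, 10.2% were false. In the data 2738 of 14289 genes were called, a larger share than was changed in the simulation, so these rates need not carry over.

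Members and gene lists were chosen with earlier results of these data known. Named genes are the members, AXIN1, the called genes of each pathway list up to the 4 with the smallest p-value, and the 5 protein-coding genes most like NNMT; genes named beyond these (GGCX, ADK, list genes that were not called or not tested, and cell type markers) were chosen after their values were seen. Alternatives were other scalings (size factors of DESeq2, the upper quartile, library totals alone), other filters (none, or mean CPM of 1 or more), other tests (limma-voom with limma 3.58.1, and the Wald test in DESeq2 1.42.0), a replicate block, a threshold of 0.01, each library left out and, chosen after seeing the data, both replicates 1 left out together.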

Additional observations from a re-analysis of the deposited data

Results flagged for a closer look

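Of 70 groups of 4 libraries examined (35 named genes under both labels), 5 held a library whose distance from its nearest neighbour, over the range of the group, exceeded Dixon's 95% critical value. Chance gives this in about 1 of 20 groups. Among the members this was NADSYN1, at 72.7 CPM in parental replicate 1 and between 47.6 and 51.0 CPM in the other 3. BHMT2 stood at 123 CPM in restored-labelled replicate 1, against 73.7 to 81.9 CPM. SRM stood at 496 CPM in parental replicate 1, against 356 to 369 CPM. ALDH1L2 stood at 9.40 CPM in restored-labelled replicate 1, against 1.49 to 1.91 CPM. AXIN1 stood at 37.7 CPM in restored-labelled replicate 4, against 47.6 to 48.2 CPM. Of these 5 values, 4 came from a replicate 1.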

How the results depend on the processing

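Over 153 alternative values of the 9 tested members, each log2 fold change moved by less than the spread between replicates. Where libraries were left out this was nearly fixed in advance, since leaving them out moves a label's mean by less than this spread. It cannot be read as stability: the sign of NAMPT turned in some alternatives, and MAT2B was not called in 6 of 18. Among 425 values of AXIN1 and the 24 called pathway genes none reversed and 85 lost the threshold. The genes most like NNMT were not run under the alternatives. Over all genes, 2738 were called, 964 at an adjusted p under 0.01, 4623 without both replicates 1, 1394 to 3523 on leaving out each library, and 66.5% of calls were higher with total counts only against 54.2%. Members called, 2 in the main analysis, were 1 at 0.01, 5 without both replicates 1 and 1 to 3 on leaving out each library. Pathway genes called, 24, were 8 at 0.01, 35 without both replicates 1 and 11 to 30 on leaving out each library. With the replicate number as a block, 14 pathway genes and 2033 of all genes were called. Same-numbered libraries correlated at -0.06 to 0.23 after their label's mean was removed, and 1 of 8 matched its own number best, so the numbers do not pair the samples. The block lost the calls of SRM (adjusted p = 0.071), MTHFD2L (0.069), SHMT2 (0.061), PCMT1 (0.076), HNMT (0.11), NMRK1 (0.051), AFMID (0.070), TNKS (0.058), PARP14 (0.063) and PARP12 (0.098). With the longest transcript, 5 of 10 members kept their place in the order of levels. Depth limits AOX1. Leaving out the replicates 1 shifted MAT1A, MAT2A and NAMPT, and so did leaving out other libraries. Without restored-labelled replicate 2 the log2 fold change was -0.19 for MAT2A (main -0.36) and 0.09 for NAMPT (main -0.06). Without restored-labelled replicate 3 it was 0.23 for MAT1A (main 0.34).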

Other observations

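Of the pathway genes, TDO2 and XDH were too low to be tested and were noticed after their values were seen. TDO2, the liver enzyme that opens the kynurenine pathway, had 0, 1, 1 and 0 counts in parental replicates 1 to 4 and 2, 15, 25 and 38 counts in the restored-labelled ones. XDH, a molybdenum enzyme related to AOX1, had 1, 0, 0 and 0 counts in the parental and 7, 17, 6 and 21 counts in the restored-labelled libraries. Every restored-labelled library held more XDH than any parental one on the CPM scale (0.251 CPM or more, against at most 0.0890 CPM). For TDO2, restored-labelled replicate 1, at 0.0717 CPM, lay within the parental range of 0 to 0.0891 CPM. No fold change is given for either.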
